A study of Mus musculus with 4 samples.

Results

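The gelsolin family genes are described here in mouse osteosarcoma tumours with and without HIF-1alpha, the oxygen-regulated transcription factor. The group holds 7 of the 55487 genes counted: Avil, Gsn, Vil1, Scin, Capg, Flii and Svil. They were taken by gene symbol. The family was selected on the value of Avil, which an earlier reading of these libraries named among the genes higher in knockout than in mock. The levels of Avil in that comparison are therefore a description, with no test, and the other 6 were added because they belong to the same protein family.

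AXT is a mouse osteosarcoma line. It was derived from marrow stromal cells lacking Ink4a/Arf and overexpressing c-MYC, which all groups share. The mock group is 1 library of Mock AXT cells, genotype WT. The knockout group is 3 libraries of HIF-1alpha KO lines, labelled AXT1-1, AXT1-2 and AXT2, so that a pair of them shares a knockout number. The deposited table names them c11, c15 and c22 without saying which labelled line each one is, and the labels do not say what the shared number means. All cells were embedded in matrigel, injected into C57BL/6scid mice, and recovered as tumours after 1 day, so a tumour can also hold host cells. The labels do not give the age of the mice, whether each line is a single clone, or whether each tumour grew in a mouse of its own. Any p-value therefore reflects only how far these libraries scatter.

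Library totals ran from 12383719 to 13193264 counts, and the limit set for a count of 0, 3 counts, was at most 0.242 CPM (a gene's counts relative to its library's total), for counting error only. Hif1a RNA was at 107 CPM in mock against 104 (c11), 98.7 (c15) and 22.3 CPM (c22). Only the c22 level was below mock beyond the counting intervals, and gene-level counts cannot check a knockout that leaves the transcript in place. Markers of the bone-forming lineage were present. Runx2 was at 245 CPM in mock against 133 (c11), 139 (c15) and 116 CPM (c22). Sp7 was at 177 CPM in mock against 65.6, 144 and 76.2 CPM in the same order. The late marker Bglap was at 1.45 CPM or less. Of the 9 markers listed, 4 were below mock in all 3 knockout libraries, as 22.5% of all genes tested were. Only Col1a1 was above in all 3, as 21.0% were, at 862 CPM in mock against 1913 (c11), 1093 (c15) and 4700 CPM (c22). In bulk tumour RNA, fewer cells of a type and less RNA per cell cannot be told apart.

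Gelsolin family proteins are built from repeats of one actin-binding fold. Many of them bind calcium, cut actin filaments and then cap the fast-growing end, and phosphoinositide lipids release them from it. Gelsolin (Gsn) and adseverin (Scin) are the classic severing proteins, and CapG (Capg) caps filaments but does not sever. Villin (Vil1), advillin (Avil) and supervillin (Svil) carry an additional headpiece that also binds actin, and flightless I (Flii) joins leucine-rich repeats to the gelsolin fold. Vil1 is best known from intestinal brush borders, and Avil from sensory neurons and tuft cells, the chemosensory cells of epithelia.

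The stretch of DNA before the Avil start is shown because Avil was the member whose RNA differed most between mock and knockout libraries. Sequences are those of RefSeq on build GRCm38.p6, where 6 of the 7 members were matched and Svil is named only. The window searched ran from 250 bases before to 50 bases after each start. The Avil stretch, chr10:127000459-127000708 on the plus strand, reads as follows 5′ to 3′, with the letters of a searched motif in capitals.
Avil: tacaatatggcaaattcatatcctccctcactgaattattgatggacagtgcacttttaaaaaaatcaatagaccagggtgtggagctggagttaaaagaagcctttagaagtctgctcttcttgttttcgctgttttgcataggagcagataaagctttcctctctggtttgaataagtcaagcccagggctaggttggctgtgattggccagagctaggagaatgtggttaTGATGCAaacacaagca

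The capitals mark TGATGCA, which begins at position -17 counted from the transcription start and is the reverse complement of TGCATCA, a core of the elements bound by ATF4 and C/EBP factors. Searched on both strands, TGCATCA was present in 3.15% of 32851 promoter windows of the same length. ACGTG, a form of the core of the HIF-binding element, was present in 19.6% of windows and not in the Avil window. Other forms of that core, such as GCGTG, were not searched. The CArG box of serum response factor, common near actin genes, was in 1.63% of windows and not in the Avil window either. No match overlapped another, a match is a description of letters only, and no match says only that the letters are not in this window.

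The last 60 bases before the start are set side by side to show how Avil differs from its relatives in base composition. For Gsn, which has 3 listed starts, the first is shown.
Avil: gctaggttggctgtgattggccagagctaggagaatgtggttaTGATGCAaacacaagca
Gsn: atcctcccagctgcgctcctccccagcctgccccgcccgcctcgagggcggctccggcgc
Scin: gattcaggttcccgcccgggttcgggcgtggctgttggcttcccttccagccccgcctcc
Vil1: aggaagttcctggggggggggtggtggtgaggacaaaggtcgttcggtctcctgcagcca
Capg: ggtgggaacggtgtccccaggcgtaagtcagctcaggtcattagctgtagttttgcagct
Flii: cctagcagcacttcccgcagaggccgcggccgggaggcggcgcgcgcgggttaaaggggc

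These stretches are chr10:127000649-127000708 (plus strand), chr2:35256299-35256358 (plus), chr12:40134229-40134288 (minus), chr1:74409324-74409383 (plus), chr6:72549587-72549646 (plus) and chr11:60727264-60727323 (minus). Over the whole window Avil had a GC content of 43.0% and 2 CpG pairs, against medians of 52.7% and 7 over all windows. Few CpG pairs were not particular to Avil. The window of the second listed Gsn start also held 2, and that of Vil1 held 5. Capg held 7, and the remaining windows of the family held 16 to 26. The other windows of the family had GC contents of 52.0% (Scin) or more. Among them Flii held ACGTG, as its reverse complement at position -163, and Vil1 held a CArG box at position -73.

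Among the 10839 genes tested that had a promoter window, 266 held TGCATCA. Of these, 29.3% were above mock in all 3 knockout libraries and 22.6% were below it, against 20.9% and 22.2% of all genes with a window. Their median log2 fold change was 0.09, against 0.05. Avil itself is among the 266. For the 3158 genes with ACGTG the shares were 21.5% and 22.3%, with a median of 0.04. For the 172 genes with a CArG box they were 20.9% and 25.6%, with a median of -0.02. No test was made of these shares.

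Avil (chromosome 10, 127000709 to 127020994, GRCm38, plus strand) was at a low level in mock and at a far higher one in each knockout library. It had 29 counts in mock, 2.34 CPM, with an exact 95% Poisson interval of 1.57 to 3.36 CPM that covers counting error only. The c11 library held 86.7 CPM (81.7 to 91.9), c15 held 29.0 CPM (26.2 to 32.1) and c22 held 69.2 CPM (64.7 to 73.8). All 3 knockout libraries lay above mock, c15 was the lowest of them, and none of the 4 counting intervals overlapped.

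The knockout mean of Avil was 61.6 ± 29.6 CPM (SD, n = 3), 26.3-fold the mock level. The fitted log2 fold change was 4.71 (SE 0.90), and it lay between 4.41 and 5.05 when 1 knockout library was left out. Ranked by its own log2 ratio to mock among the 15706 genes tested, Avil was number 4 in c11 (log2 ratio 4.94), number 14 in c15 (3.38) and number 3 in c22 (4.62), with 0.5 CPM added before taking ratios. The 3 ratios share the mock library and its 29 counts. Avil also varied between the knockout libraries, 2.99-fold from lowest to highest. That log2 range of 1.56 exceeded the range of 87.5% of genes tested, whose median was 0.69.

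**Figure D1:**
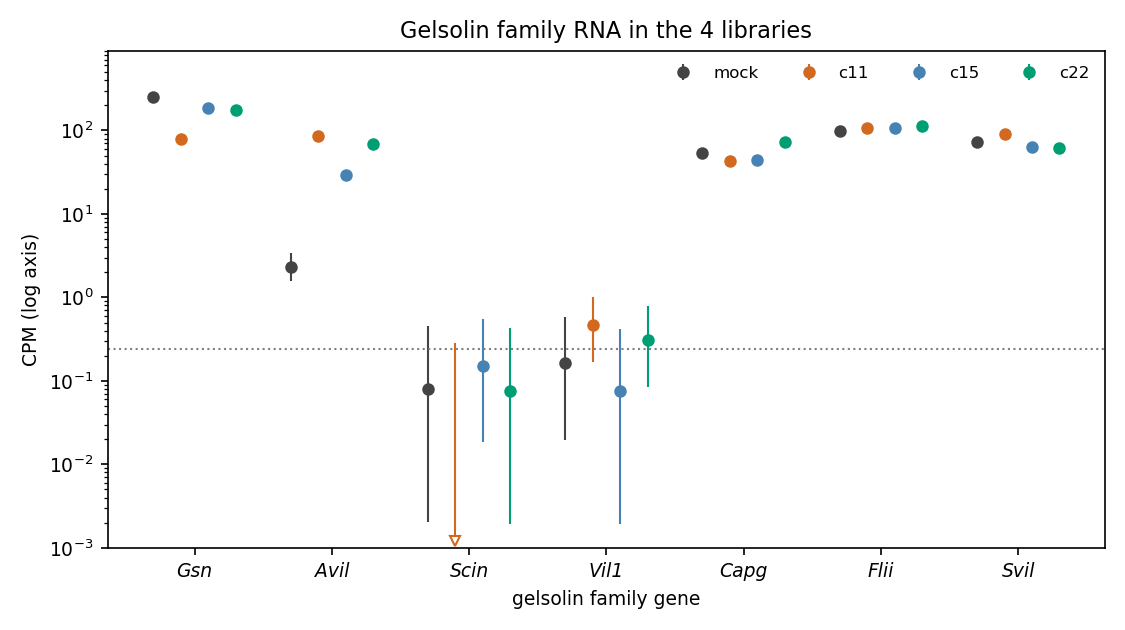
RNA level of each gelsolin family gene in CPM on a log axis, 1 point per library with its exact 95% Poisson interval, which covers counting error only. The dotted line is the highest limit of 3 counts over the libraries (0.242 CPM), and the open triangle is a count of 0, drawn at the bottom of the axis. Avil rises from 2.34 CPM in mock to between 29.0 and 86.7 CPM, Scin and Vil1 stay near or under the dotted line, and the other genes are between 43.4 and 252 CPM.

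Gsn (chromosome 2, 35256380 to 35307892, plus strand), the family's main severing gene in connective tissue, was the most abundant member in mock. Its level was 252 CPM in mock against 78.9 (c11), 186 (c15) and 174 CPM (c22). All 3 knockout libraries lay below mock, with c11 the lowest by a wide margin. The fitted difference from mock was -0.78 on the log2 scale (SE 0.51, edgeR adjusted p = 1) and did not pass, with a knockout mean of 146 ± 58.6 CPM (SD, n = 3). Without c11 it was -0.47. A gene-level count sums the secreted and the cytoplasmic form of gelsolin, which use different starts.

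Markers of host cells are given beside Gsn. Of those in the macrophage, skeletal muscle, erythroid and fibroblast lists, 0 were called by edgeR, against 0% higher and 0.00637% lower over all genes. A missing call does not show that they stayed at the mock level. Their median log2 fold changes were -0.83, -3.49, -2.83 and -0.76 in that order, against 0.05 for all genes tested. Of all genes tested, 22.5% were below mock in all 3 knockout libraries and 21.0% above. Of 13 macrophage markers, 12 were below mock in all 3 knockout libraries, and their summed level was 898 CPM in mock against 280 (c11), 395 (c15) and 498 CPM (c22). All 9 skeletal muscle markers were below mock in every knockout library, with sums of 116 CPM in mock against 3.11 to 23.2 CPM elsewhere. All 5 erythroid markers were below mock in every knockout library too, with sums of 116 CPM in mock against 1.63 (c11), 4.24 (c15) and 41.1 CPM (c22). Of 9 fibroblast markers, 4 were below mock in all 3 and 0 above, and the list summed to 205 CPM in mock against 179 to 307 CPM in knockout. The fibroblast matrix gene Dcn was at 45.1 CPM in mock against 6.35 (c11), 30.8 (c15) and 11.9 CPM (c22). The fibroblast and pericyte receptor gene Pdgfrb ran the other way, at 47.5 CPM in mock against 213 (c11), 47.2 (c15) and 196 CPM (c22). The part of these host cells in the level of Gsn was not tested.

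Scin (chromosome 12, 40059769 to 40134228, minus strand), the severing gene of secretory cells, had 1 count in mock against 0 (c11), 2 (c15) and 1 (c22). Vil1 (chromosome 1, 74409376 to 74435559, plus strand) had 2 counts in mock against 6 (c11), 1 (c15) and 4 (c22). Scin was below that limit of 3 counts in all 4 libraries, and Vil1 exceeded it in c11 and c22 only, at 0.46 and 0.31 CPM. Their mock counting intervals, up to 0.45 CPM for Scin and 0.58 CPM for Vil1, overlapped those of each knockout library. Neither passed the filter on low counts, so no fold is given. No marker of brush border epithelium averaged 1 CPM or more, and the 11 of them summed to 1.01 to 2.75 CPM.

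Capg (chromosome 6, 72544391 to 72562983, plus strand), the capping gene that is abundant in macrophages, was at 54.3 CPM in mock against 43.4 (c11), 44.3 (c15) and 72.0 CPM (c22). The knockout libraries fell on both sides of mock. The fitted difference from mock was -0.02 on the log2 scale (SE 0.43, edgeR adjusted p = 1), and its sign turned when c11 or c15 was left out (0.12 and 0.10). Of the 3 knockout libraries, c22 was highest both for Capg and for the summed macrophage markers, but the mock library had the highest marker sum and an intermediate Capg level. The part of macrophages in Capg was not tested.

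Flii (chromosome 11, 60714123 to 60727263, minus strand), which also serves as a nuclear receptor coactivator, was the steadiest member. It was at 97.5 CPM in mock against 107 (c11), 106 (c15) and 112 CPM (c22). The knockout libraries lay above mock by a small step, with a knockout mean of 108 ± 3.39 CPM (SD, n = 3), and the fitted difference from mock was 0.15 on the log2 scale (SE 0.29, edgeR adjusted p = 1). Its log2 range among knockout libraries was 0.08, narrower than that of all but 1.22% of genes tested.

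Svil (chromosome 18, 4920540 to 5119299, plus strand) encodes a large membrane-bound member that links actin and myosin II to the plasma membrane. It was at 73.4 CPM in mock against 91.1 (c11), 64.0 (c15) and 62.3 CPM (c22). Only c11 lay above mock. The fitted difference from mock was -0.02 on the log2 scale (SE 0.35, edgeR adjusted p = 1), and its sign turned without c15 (0.06) or c22 (0.07). Vill, a villin-like relative outside the 7, was at 4.36 CPM in mock against 5.34 (c11), 3.49 (c15) and 2.14 CPM (c22), with a log2 fold change of -0.25 (SE 0.67, edgeR adjusted p = 1).

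Across the family, 5 of the 7 members were tested. Avil was above mock in all 3 knockout libraries, but the family was selected on that higher level. Of the other 4, Flii was above mock in all 3, as 21.0% of all genes tested were. Gsn was below mock in all 3, as 22.5% were. Leaving Avil aside, 0 of the other 4 were called in either direction by edgeR's quasi-likelihood test (adjusted p under 0.05), 0 had an unadjusted p under 0.05, and DESeq2 and limma-voom called 0. Over all genes edgeR called 0 higher (0%) and 1 lower (0.00637%). At an unadjusted p under 0.05, 176 genes were higher and 402 lower, DESeq2 called 48 and 66, and limma-voom 0 in both directions. A missing call does not show that a member stayed at its mock level.

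**Figure D2:**
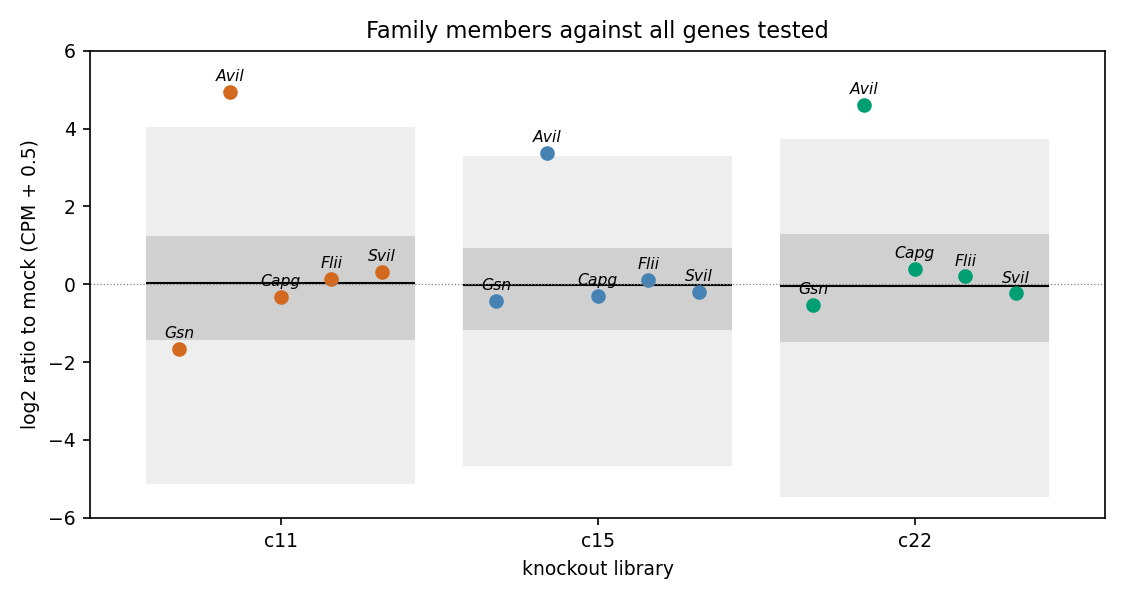
Log2 ratio of each tested member to mock in each knockout library, with 0.5 CPM added. The dark band holds the middle 90% and the light band nearly all (all but the most extreme 0.1% on each side) of the 15706 genes tested, and the black line is their median. Avil lies above the light band in all 3 libraries, Gsn in c11 lies below the dark band, and the remaining points lie inside it.

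To compare levels between members, CPM was divided by the length of each gene's merged exons in kilobases. The order of the levels differed between libraries. In mock, Gsn stood at 79.9 CPM per kilobase, followed by Capg at 21.5, Flii at 19.3, Svil at 6.86 and Avil at 0.69. The counting intervals of Capg (19.9 to 23.2) and Flii (18.3 to 20.5) overlapped. In c11, Avil at 25.5 and Gsn at 25.0 CPM per kilobase had overlapping counting intervals (24.0 to 27.0 and 23.5 to 26.6) and shared the first place, ahead of Flii at 21.2, Capg at 17.2 and Svil at 8.51.

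In c15 the order was Gsn at 58.9, Flii at 21.0, Capg at 17.5, Avil at 8.54 and Svil at 5.99 CPM per kilobase. In c22 it was Gsn at 55.0, Capg at 28.5, Flii at 22.2, Avil at 20.4 and Svil at 5.82 CPM per kilobase. Avil was thus the least abundant of the 5 in mock and ranked above Svil in every knockout library. In c22 the intervals of Flii (21.1 to 23.4) and Avil (19.1 to 21.7) overlapped.

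Avil made up 0.54% of the summed family level per kilobase in mock against 26.2% (c11), 7.62% (c15) and 15.4% (c22). The share of Gsn was 62.3% in mock against 25.7% (c11), 52.6% (c15) and 41.6% (c22). Capg ranged from 15.6% to 21.6% over the 4 libraries, Flii from 15.1% to 21.7% and Svil from 4.41% to 8.73%. The summed level was 128 CPM per kilobase in mock, inside the knockout range of 97.5 to 132. Without Avil the sum was 128 in mock against 71.9 (c11), 104 (c15) and 112 (c22), so the mock value lay above all 3. Of the members in that sum, only Gsn was itself below mock in all 3.

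**Figure D3:**
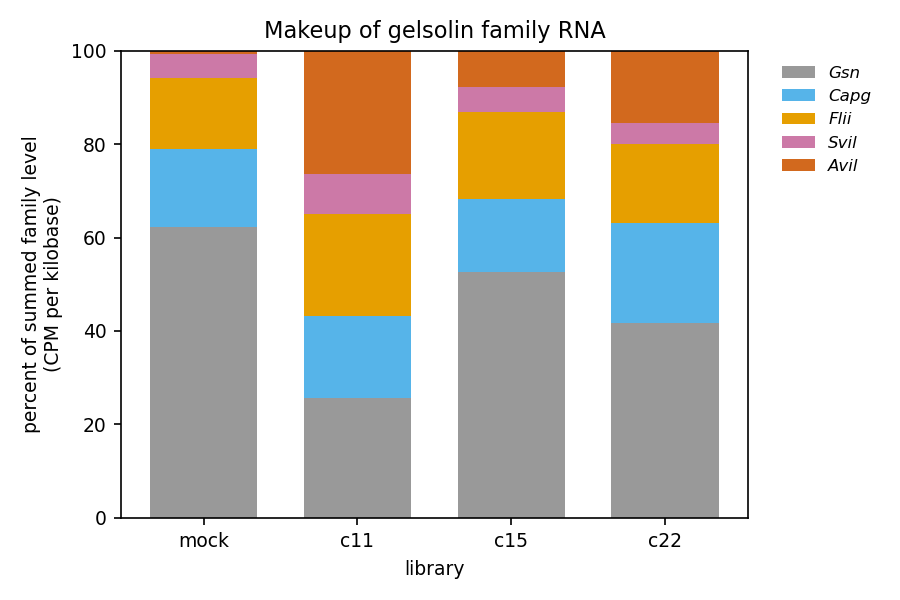
Share of each member in the summed gelsolin family level (CPM per kilobase), 1 stacked bar per library. Scin and Vil1 together are too small to draw. Avil grows from 0.54% in mock to 26.2%, 7.62% and 15.4% in c11, c15 and c22, and the share of Gsn is smaller in every knockout library than in mock.

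Avil overlaps Tsfm, a mitochondrial translation factor gene on the opposite strand, over 9423 bases, of which 165 are exonic in both genes, 4.86% of the Avil exons. Whether counting used the strand is not given in the sources used here, so reads from these shared bases may not be told apart. Tsfm was at 55.6 CPM in mock against 54.4 (c11), 65.1 (c15) and 51.1 CPM (c22), on both sides of mock. Ctdsp2, a phosphatase gene, ends 733 bases before Avil on the same strand. It was at 299 CPM in mock against 233 (c11), 212 (c15) and 334 CPM (c22). Neither neighbour had the order of levels that Avil had, with mock lowest by far. Exon overlaps of the other members were 49 bases for Vil1 with Usp37 and 64 bases for Flii with Llgl1, both on opposite strands.

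Of the next genes on either side, Atp23 was at 22.1 CPM in mock against a knockout mean of 11.3 ± 1.87 CPM (SD, n = 3), below mock in all 3. Eef1akmt3 was at 2.42 CPM against 2.04 ± 0.28 CPM, and Mettl1 was at 40.2 CPM against 35.9 ± 5.72 CPM. Lrig3, 985349 bases away, was at 31.9 CPM against 39.9 ± 10.8 CPM. No neighbour was above mock in all 3 knockout libraries.

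**Figure D4:**
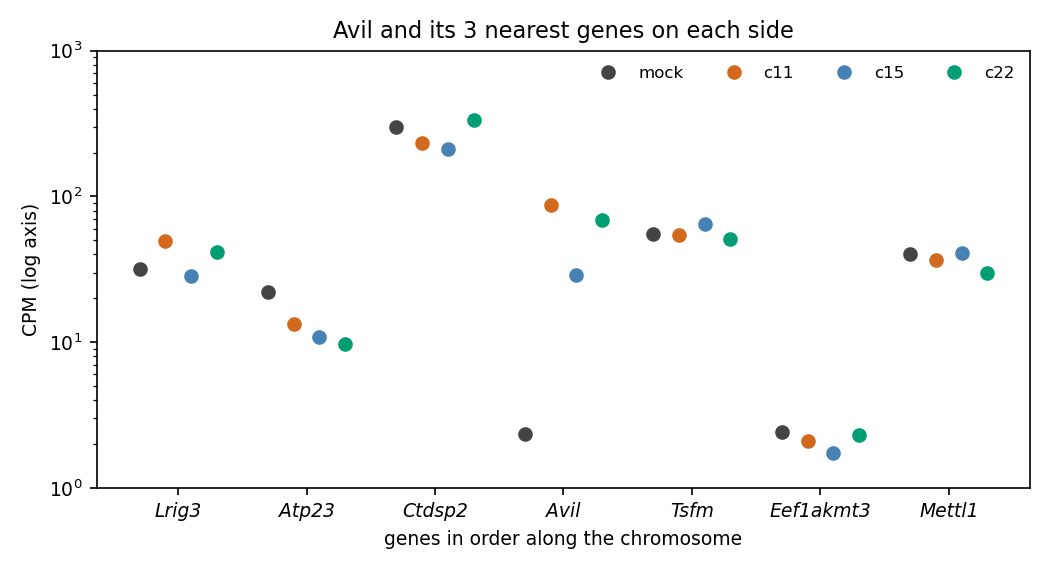
CPM on a log axis of Avil and the 3 nearest genes on each side that average at least 1 CPM, in chromosomal order, 1 point per library. Of the 7 genes, Avil has its mock point far below its knockout points, while the points of Ctdsp2 and Tsfm, its nearest neighbours, lie close together.

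Avil is also a marker of cell types that a tumour could hold, so their other markers were read beside it. Of 9 sensory neuron markers, Calca, Scn10a and Tac1 had 0 counts in all 4 libraries, Trpv1 had 1 count over all libraries, and only Isl1 averaged 1 CPM or more. Isl1 was at 9.69 CPM in mock against 12.5 (c11), 6.97 (c15) and 7.42 CPM (c22), and the list summed to 10.7 CPM in mock against 7.95 to 12.7 CPM in knockout. Of 6 tuft cell markers, Pou2f3, the transcription factor that specifies the lineage, and the cytokine gene Il25 had 0 counts in all libraries, and Gnat3 had at most 2.

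The remaining tuft cell markers were above mock in all 3 knockout libraries, as 21.0% of all genes tested were. Sh2d6, an adaptor gene, had 5 counts in mock, 0.40 CPM, against 10.3 (c11), 6.22 (c15) and 8.33 CPM (c22). Its fitted log2 difference from mock was 4.33 (SE 0.91, edgeR adjusted p = 0.419), which did not pass. Dclk1, a kinase gene that is also expressed in other cells, was at 57.4 CPM in mock against 97.2 (c11), 71.8 (c15) and 63.0 CPM (c22). Trpm5, the taste-pathway channel gene, was at 1.53 CPM in mock against 2.01 (c11), 1.82 (c15) and 1.83 CPM (c22). These Trpm5 levels rest on 19 counts in mock against 26, 24 and 24. The log2 fold changes of Dclk1 and Trpm5 were small beside their errors, at 0.43 (SE 0.37) and 0.30 (SE 0.67). The list summed to 59.4 CPM in mock against 73.2 to 110 CPM in knockout, most of it Dclk1. The part of tuft cells in the level of Avil was not tested.

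The genes whose profile over the 4 libraries was most like that of Avil were found by the Euclidean distance between mean-centred log2(CPM + 0.5) values. Of 11314 other tested genes averaging 5 CPM or more, 10216 were ranked. Predicted genes, pseudogenes and genes named only by a clone or an ID were left out. The nearest was Gadd45a, a stress-induced growth arrest gene, at a distance of 0.48, with 1.78 CPM in mock against 62.2 (c11), 30.1 (c15) and 46.3 CPM (c22). Next came Sh2d6 (1.15), Sspo, which encodes a secreted glycoprotein of the brain (1.19), Ptx3, a secreted pattern recognition gene (1.22), and Slc40a1, the iron exporter gene (1.37). Their likeness to Avil is what chose them, and the mock level of each was under 5 CPM, so they passed the level filter through the knockout libraries. The 4 points share 1 mock library, and the mock counts of Sh2d6 and Ptx3 were 5 and 2. With 0.1 CPM added, 4 of the 5 were the same genes.

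**Figure D5:**
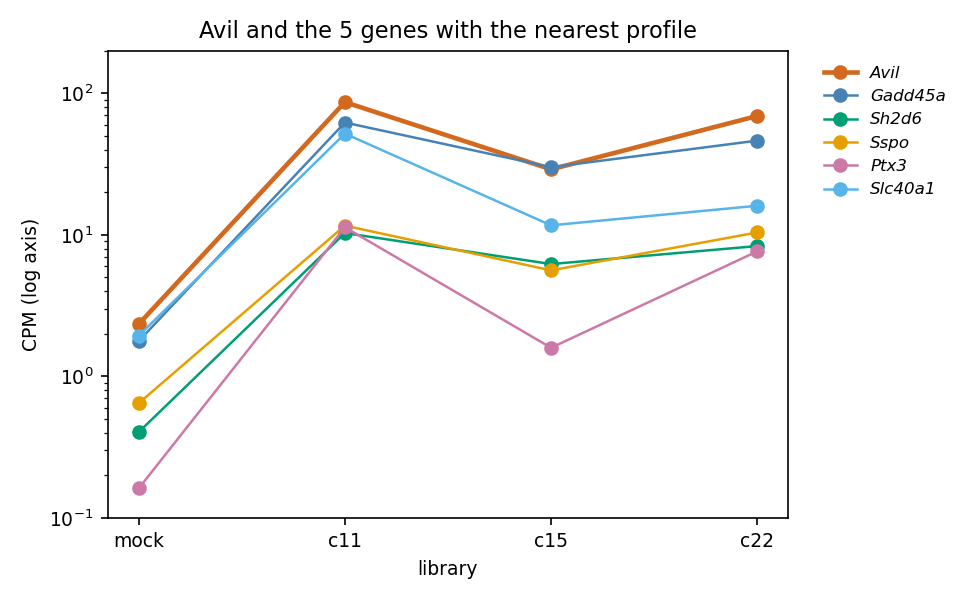
CPM on a log axis of Avil and the 5 genes with the nearest profile, by library, where lines only join the points of 1 gene. Avil and Gadd45a lie close together in c15, at 29.0 and 30.1 CPM. Avil is the higher at 2.34 and 1.78 CPM (mock), 86.7 and 62.2 CPM (c11) and 69.2 and 46.3 CPM (c22). Each of the 6 genes is highest in c11.

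The wider machinery of actin filament turnover was read from 75 genes in 7 lists, of which 71 were tested. No gene of these lists was called in either direction by edgeR (0 of 71), DESeq2 or limma-voom, against 0% higher and 0.00637% lower over all genes, and 1 of the 71, the muscle actin gene Acta1, had an unadjusted p under 0.05. Of the 71, 12 were above mock in all 3 knockout libraries and 12 below, 16.9% each, against 21.0% and 22.5% of all genes. Their median log2 fold change was 0.10, against 0.05 for all genes tested. Acta1 is also in the skeletal muscle list, whose 9 markers were all below mock in every knockout library.

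The most abundant gene of each list is named. Actb, the cytoplasmic beta-actin gene, was at 1803 CPM in mock against 2223 ± 138 CPM in the knockout libraries (SD, n = 3). Cfl1, the main filament-severing gene outside the gelsolin family, was at 1027 CPM against 877 ± 105 CPM. Capza1, which encodes a subunit of capping protein, was at 203 CPM against 217 ± 18.1 CPM, and the monomer-binding profilin gene Pfn1 was at 632 CPM against 647 ± 192 CPM. None of these passed, with log2 fold changes of 0.31 (SE 0.26), -0.22 (SE 0.29), 0.10 (SE 0.29) and 0.04 (SE 0.39).

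Among nucleators, the Arp2/3 complex gene Actr3 was at 308 CPM in mock against 375 ± 21.1 CPM in the knockout libraries. The filament crosslinker gene Flna was at 744 CPM against 745 ± 27.1 CPM, and the tropomyosin gene Tpm3 at 485 CPM against 526 ± 46.3 CPM. List medians of the log2 fold change lay between -0.14 for tropomyosins and 0.22 for actin isoforms, whose median was 0.93 with no filter on low counts, when 2 more genes entered. Severing and disassembly genes outside the family had a median of 0.11 (0.0155 without c15), with 3 of 19 above mock in all 3 knockout libraries and 4 below.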

How the data were processed

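Poly(A) RNA of 1 mock and 3 knockout tumours was measured. The deposited table gives whole-number read counts for each Ensembl gene, with a column for every library. The submitters' processing notes list the build GRCm38, the counter featureCounts 1.6.3, HISAT2 2.1.0, Trimmomatic 0.38, SAMtools 1.9 and FastQC 0.11.7. Their settings (strand included) are not given in the sources used here, so reads where genes overlap on opposite strands may not have been kept apart. The kit was directional, per the labels' protocols. No column of another sample was present.

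A symbol shared by several IDs was kept for the one with most counts. CPM used all counts of a library. Exon lengths came from GENCODE M21 (55227 of 55487 IDs found), and promoters from RefSeq. Pairs of libraries differed by a chi-square per gene far beyond sampling noise. It ran from 48.3 (c15) to 74.7 (c22) between mock and a knockout library. Between knockout libraries it ran from 50.6 (c11 and c22) to 90.3 (c15 and c22). The filter filterByExpr kept 15706 genes holding 99.9% of counts. After TMM scaling they were tested by the robust quasi-likelihood test of edgeR 4.0.16 in R 4.3.3 (2-sided, Benjamini-Hochberg over all genes, threshold 0.05). The SE came from the F statistic. The spread came from the knockout libraries and was taken to hold for mock, with a prior of 3.77 beside 2 residual degrees of freedom. On simulated data of this comparison (15283 genes), the test found 36 of 100 genes set to a 4-fold change and 94 of 100 set to 16-fold, and made 21 false calls. The changed genes were drawn from the better-counted ones, with the fold split evenly around the mean. These rates therefore do not carry over to genes barely counted in mock. The real comparison called 0 genes higher and 1 lower, so the rates may not hold for it either. Alternatives were DESeq2 1.42.0, limma-voom 3.58.1, other scalings and filters, and leaving out each knockout library.

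The members, lists and tests were chosen with earlier results of these data known. Named genes are the members, Vill, Hif1a, the most abundant gene of each actin list, the 5 genes most like Avil, its neighbours, genes overlapping members and markers given beside a result. Protein sequences were not analysed here.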

Additional observations from a re-analysis of the deposited data

How the results depend on the processing

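Avil kept its direction in all 10 alternatives, with log2 fold changes from 4.41 to 5.05, as did Gsn (-0.99 to -0.47) and Flii (0.12 to 0.18). Each alternative used the same mock library. For these genes every knockout library lay on the same side of it, so a kept direction was close to fixed in advance. Without 1 knockout library, Capg ranged from -0.32 to 0.12 and Svil from -0.20 to 0.0719, reversing without c11 (Capg 0.12), c15 (Capg 0.10, Svil 0.06) and c22 (Svil 0.0719). Over all genes, the count of higher genes was 48 with DESeq2 and 0 otherwise. The count of lower genes, 1, became 66 with DESeq2, 4 with no filter, 0 with limma-voom, 0 with the older quasi-likelihood method (an alternative chosen after seeing the data) and 0 to 0 without 1 knockout library. With no filter, medians were 0.93 for actin isoforms, where 2 more genes entered, and 0.0625 for severing genes outside the family. Without 1 library, medians ran from 0.0155 to 0.0577 for those severing genes, from -0.0515 to 0.21 for bundling genes and from -0.27 to -0.0720 for tropomyosins. The cause was not tested. In plain CPM, mock and knockout mean shares were 11.3% and 11.9% for Capg, 20.3% and 24.6% for Flii, and 15.3% and 16.7% for Svil. No paired analysis was possible because there is 1 mock library. Depth limits Scin and Vil1. The comparison of protein sequences was not run.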

Other observations

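Single genes of the actin lists differed between the knockout libraries, named here after their values were seen. Acta2, the smooth muscle actin gene, was at 9.45 CPM in mock against 8.91 (c11), 22.9 (c15) and 103 CPM (c22). Tpm2, a tropomyosin gene of contractile cells, was at 15.7 CPM in mock against 1.16 (c11), 1.67 (c15) and 15.3 CPM (c22). Carmil1, a regulator of capping protein, was at 62.8 CPM in mock against 24.9 (c11), 50.8 (c15) and 6.12 CPM (c22). Daam1, a formin gene, was at 8.64 CPM in mock against 29.9 (c11), 13.7 (c15) and 19.6 CPM (c22), above mock in all 3. Acta1, an actin gene of the skeletal muscle list, was at 24.1 CPM in mock against 3.18 (c11), 0.45 (c15) and 5.58 CPM (c22). None was called (edgeR adjusted p of 0.785 for Acta1 and 1 for the others).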
